A study of Mus musculus with 28 samples.

Results

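The 10 genes examined here make, recycle or use UDP-N-acetylglucosamine (UDP-GlcNAc), the nucleotide sugar at the end of the hexosamine pathway. They were chosen by name, and each was followed through all of its probe sets that the platform annotation gives a single gene symbol. All 10 were found, with 27 probe sets, among 18193 genes and 34945 probe sets with 1 symbol. Gfpt1 had 6 probe sets, Uap1 and Ogt 5 each, Gnpnat1 4, Nagk 2, and Gfpt2, Pgm3, Amdhd2, Renbp and Gnpda1 1 each. One further probe set, which the annotation gives to both Gnpda1 and Gm8615, was left out. Values are log2 ratios of a probe set to its own median over the 28 arrays. They show differences between samples, and the level of one gene cannot be set against that of another.

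RNA came from cells named NIH3T3 K-ras in the labels (here K-ras) and from NIH3T3, an immortalised mouse fibroblast line. Each line was collected after 24, 48 and 72 h in medium with 1 mM glucose, and at 0 h (the medium change) and after 24, 48 and 72 h in medium with 25 mM glucose. That gave 14 groups of 2 arrays, labelled as biological replicates, in which both glucose media held 4 mM glutamine. The study asked which genes respond to the supply of glucose. A single line of each kind was grown, so a difference between them is one between these 2 lines. The sources used here do not give the K-ras allele, what drives it, or whether the line is a clone. Because levels were removed before deposit, fibroblast markers could not be used to check what the cells are.

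UDP-GlcNAc is built from fructose 6-phosphate, so the pathway leaves glycolysis near its start and also takes in glutamine, acetyl-CoA and UTP. Gfpt1 and Gfpt2 catalyse its first and rate-limiting step, the transfer of an amino group from glutamine. Gnpnat1 then adds the acetyl group, Pgm3 moves the phosphate and Uap1 joins the sugar to UTP. A second route recovers amino sugars that cells release from broken-down glycans. In it Nagk phosphorylates free N-acetylglucosamine, and Renbp interconverts N-acetylglucosamine and N-acetylmannosamine. Amdhd2 removes the acetyl group from N-acetylglucosamine 6-phosphate, and Gnpda1 deaminates glucosamine 6-phosphate to fructose 6-phosphate, so both lead sugar out of the pathway. Ogt spends UDP-GlcNAc to place O-GlcNAc on nuclear and cytoplasmic proteins. Below, Gfpt1, Gfpt2, Gnpnat1, Pgm3 and Uap1 are called synthesis genes, and Nagk, Amdhd2, Renbp and Gnpda1 salvage and breakdown genes.

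Some arrays went against their labels. By Il33 and Krt14, a cytokine and a keratin that separate the lines, 6 arrays looked like the line opposite to their label. In K-ras these were replicate 1 at 25 mM and 0 h and replicate 1 at 1 mM at both 48 and 72 h. In NIH3T3 they were both arrays at 1 mM and 24 h, and replicate 1 at 1 mM and 48 h. Labels were kept, and calls that changed without the 6 are given both ways. The spiked control bioC was below -0.6 on 12 arrays, all labelled NIH3T3. At 25 mM it was low on every NIH3T3 array and on no K-ras array, so there line and bioC cannot be told apart. Replicate 1 of K-ras 25 mM 72 h stood apart with bioC at 2.98. Over all probe sets, the 2 arrays of a group correlated at -0.51 to 0.86, with a median of 0.26.

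**Figure D1:**
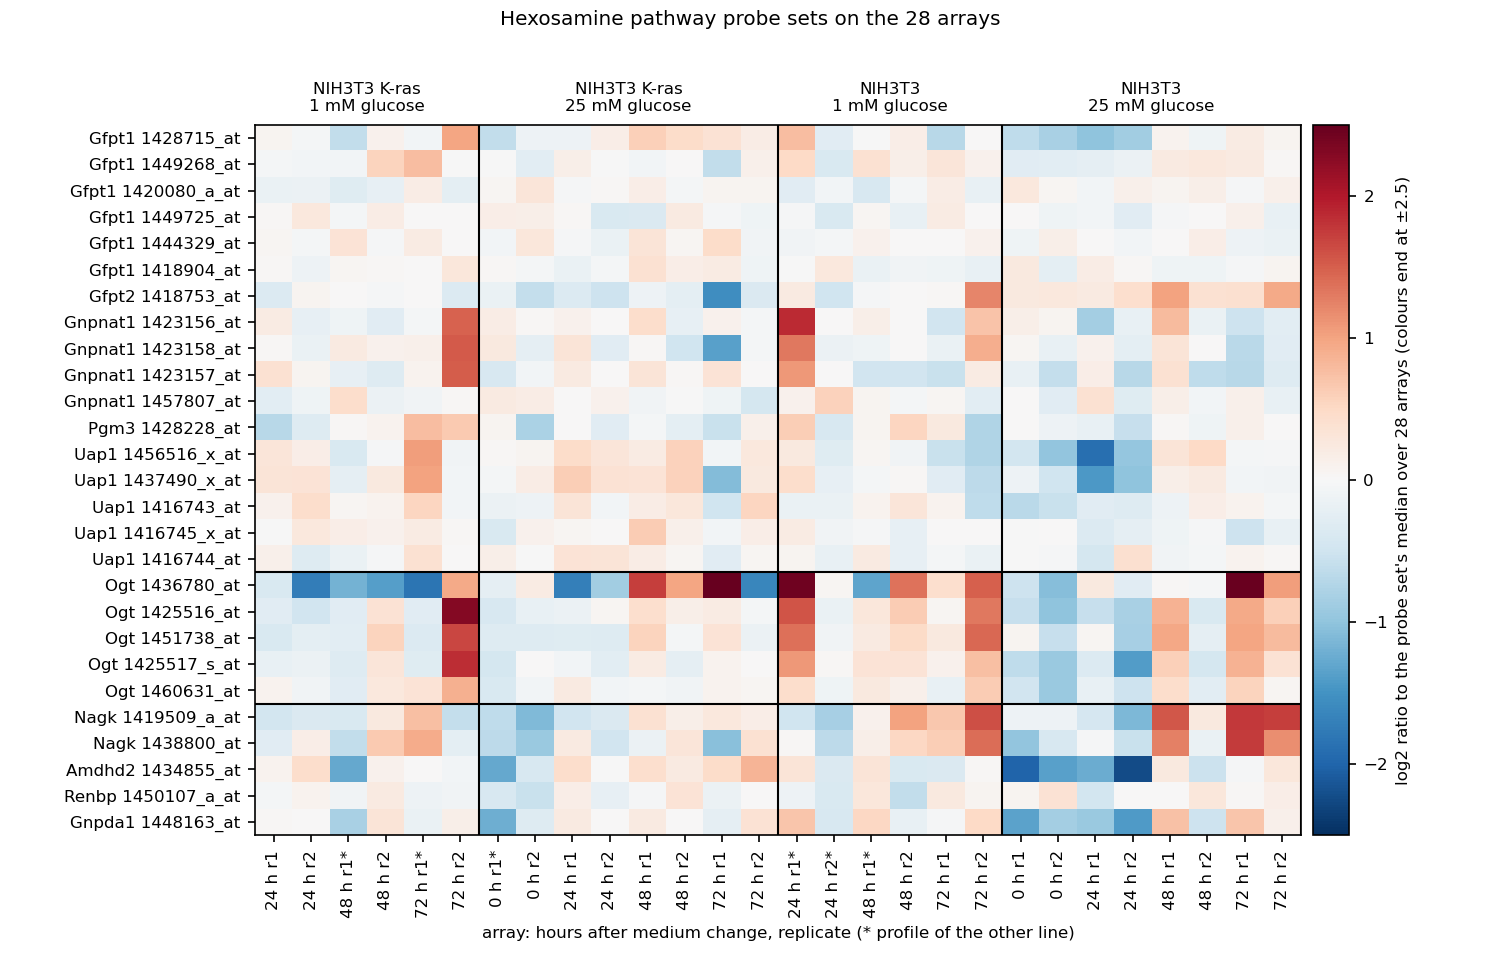
Log2 ratio of each of the 27 probe sets (rows, by gene) on each of the 28 arrays (columns, by line, glucose and time), with red above and blue below the probe set's median over all arrays and a star on the 6 arrays that look like the opposite line. Amdhd2 and Gnpda1 are blue on the NIH3T3 25 mM arrays of 0 and 24 h, and 3 of the 4 Gnpnat1 rows and all 5 Ogt rows are red on replicate 2 of K-ras 1 mM 72 h and on replicate 1 of NIH3T3 1 mM 24 h.

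In NIH3T3 kept in 25 mM glucose, Nagk and Amdhd2, which recycle and break down amino sugars, rose between 0 and 72 h. In that line, limma called 3 of the 27 member probe sets between 72 h and 0 h, all higher at 72 h and all of salvage genes, when 5.11% of all 34945 probe sets were called (3.14% higher). A call is a Benjamini-Hochberg adjusted p under 0.05 over all 34945 probe sets. The 4 arrays of this comparison all lay with their line, and all were low in bioC. Of the 5 salvage probe sets 3 were called, with a median log2 fold change of 1.81, and of the 17 synthesis probe sets 0 were called, with a median of 0.08. The median over all probe sets was -0.07. At an unadjusted p under 0.05, 10 of the 27 member probe sets passed, against 6862 of all 34945. In the same comparison the fibroblast markers (Col1a1, Col1a2, Col3a1, Fn1, Vim and Pdgfrb) were positive in 11 of 14 probe sets, with a median of 1.13 and 1 called, and their part in the result was not tested. No probe set of the leukocyte, epithelial, endothelial, fat or skeletal muscle markers was called there.

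Amdhd2, the deacetylase, is measured by a single probe set. On K-ras arrays at 25 mM it stood at -1.28 and -0.40 at 0 h, 0.43 and -0.01 at 24 h, 0.42 and 0.22 at 48 h, and 0.46 and 0.85 at 72 h. On NIH3T3 arrays it stood at -2.01 and -1.35 at 0 h, -1.25 and -2.23 at 24 h, 0.24 and -0.53 at 48 h, and -0.03 and 0.29 at 72 h. In NIH3T3 both late times lay above both early ones without overlap, and in K-ras the arrays at 0 h were the lowest. The 72 h mean in NIH3T3 was 0.13 ± 0.23, against -1.68 ± 0.46 at 0 h (SD, n = 2 each), a log2 fold change of 1.81 ± 0.45 (SE, limma adjusted p = 0.0276). In K-ras the log2 fold change from 0 to 72 h was 1.50 ± 0.45 (limma adjusted p = 0.222), and 1.06 ± 0.43 without the arrays out of place, 1 of which is replicate 1 at 0 h.

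Nagk, the kinase that returns free N-acetylglucosamine to the pathway, has 2 probe sets that correlated at 0.83 over the 28 arrays. The probe set that varied more, 1419509_a_at, stood on K-ras arrays at -0.63 and -1.11 at 0 h, -0.47 and -0.37 at 24 h, 0.38 and 0.15 at 48 h, and 0.26 and 0.16 at 72 h. On NIH3T3 arrays it stood at -0.12 and -0.12 at 0 h, -0.42 and -1.12 at 24 h, 1.56 and 0.25 at 48 h, and 1.76 and 1.72 at 72 h. The 72 h arrays of NIH3T3 were the highest of these 16, with a close pair at each end of the comparison. It rose by a log2 fold change of 1.86 ± 0.45 (limma adjusted p = 0.0249) from 0 to 72 h in NIH3T3, and the other probe set, 1438800_at, by 2.15 ± 0.55 (limma adjusted p = 0.0336). In K-ras the log2 fold changes were 1.08 ± 0.45 (limma adjusted p = 0.308) and 0.47 ± 0.55 (limma adjusted p = 0.727).

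The 250 bases before and 50 after the RefSeq start of Amdhd2 and Nagk (build GRCm38.p6) are shown because these are the members that rose together. Amdhd2 lies at chr17:24163684-24163983 on the minus strand and Nagk at chr6:83794750-83795049 on the plus strand. Capitals mark the E-box CACGTG, which reads the same on both strands.
Amdhd2: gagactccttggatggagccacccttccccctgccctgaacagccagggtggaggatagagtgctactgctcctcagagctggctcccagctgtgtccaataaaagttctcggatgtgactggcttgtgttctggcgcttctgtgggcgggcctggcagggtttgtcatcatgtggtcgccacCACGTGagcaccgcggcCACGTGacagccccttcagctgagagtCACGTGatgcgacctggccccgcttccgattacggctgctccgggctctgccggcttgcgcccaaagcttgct
Nagk: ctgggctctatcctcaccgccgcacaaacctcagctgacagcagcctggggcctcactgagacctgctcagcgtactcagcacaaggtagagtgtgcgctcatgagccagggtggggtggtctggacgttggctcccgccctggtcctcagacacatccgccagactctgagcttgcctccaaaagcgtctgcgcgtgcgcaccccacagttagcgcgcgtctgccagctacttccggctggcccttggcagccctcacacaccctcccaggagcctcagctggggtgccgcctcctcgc
The Amdhd2 window holds 3 matches, whose first bases lie at -67, -50 and -23 from the start and which read ACCACGTGAG, GCCACGTGAC and GTCACGTGAT with the neighbouring bases. Of 32851 windows of the same length, 7.15% hold at least 1 such match and 0.088% hold 3 or more. E-boxes are read by many basic helix-loop-helix factors, among them the MYC, USF and TFE families. The Nagk window holds none. Both strands of each window were also searched for TGACGTG, a core read by XBP1 and ATF6, and for TGATGNAA, a core read by ATF4. TGACGTG shares its last 5 letters with the E-box but no stretch can match both at the same place. Neither was found in these 2 windows. A match of letters is not evidence of binding, and the arrays hold no binding data.

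Gnpda1, which sends glucosamine 6-phosphate back to glycolysis, took a course close to that of Amdhd2 but did not pass the test. On K-ras arrays at 25 mM it stood at -1.22 and -0.32 at 0 h, 0.23 and 0.00 at 24 h, 0.23 and 0.01 at 48 h, and -0.23 and 0.37 at 72 h. On NIH3T3 arrays it stood at -1.34 and -0.84 at 0 h, -0.93 and -1.42 at 24 h, 0.74 and -0.51 at 48 h, and 0.69 and 0.13 at 72 h. The NIH3T3 arrays of 72 h did not overlap those of 0 h, with a log2 fold change of 1.50 ± 0.47 (limma adjusted p = 0.0720). In K-ras it was 0.84 ± 0.47 (limma adjusted p = 0.421), and 0.39 ± 0.46 without the 6 arrays. Renbp, the epimerase, had a log2 fold change of 0.41 ± 0.25 in K-ras and -0.13 ± 0.25 in NIH3T3, and over all 28 arrays it kept between -0.61 and 0.36.

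**Figure D2:**
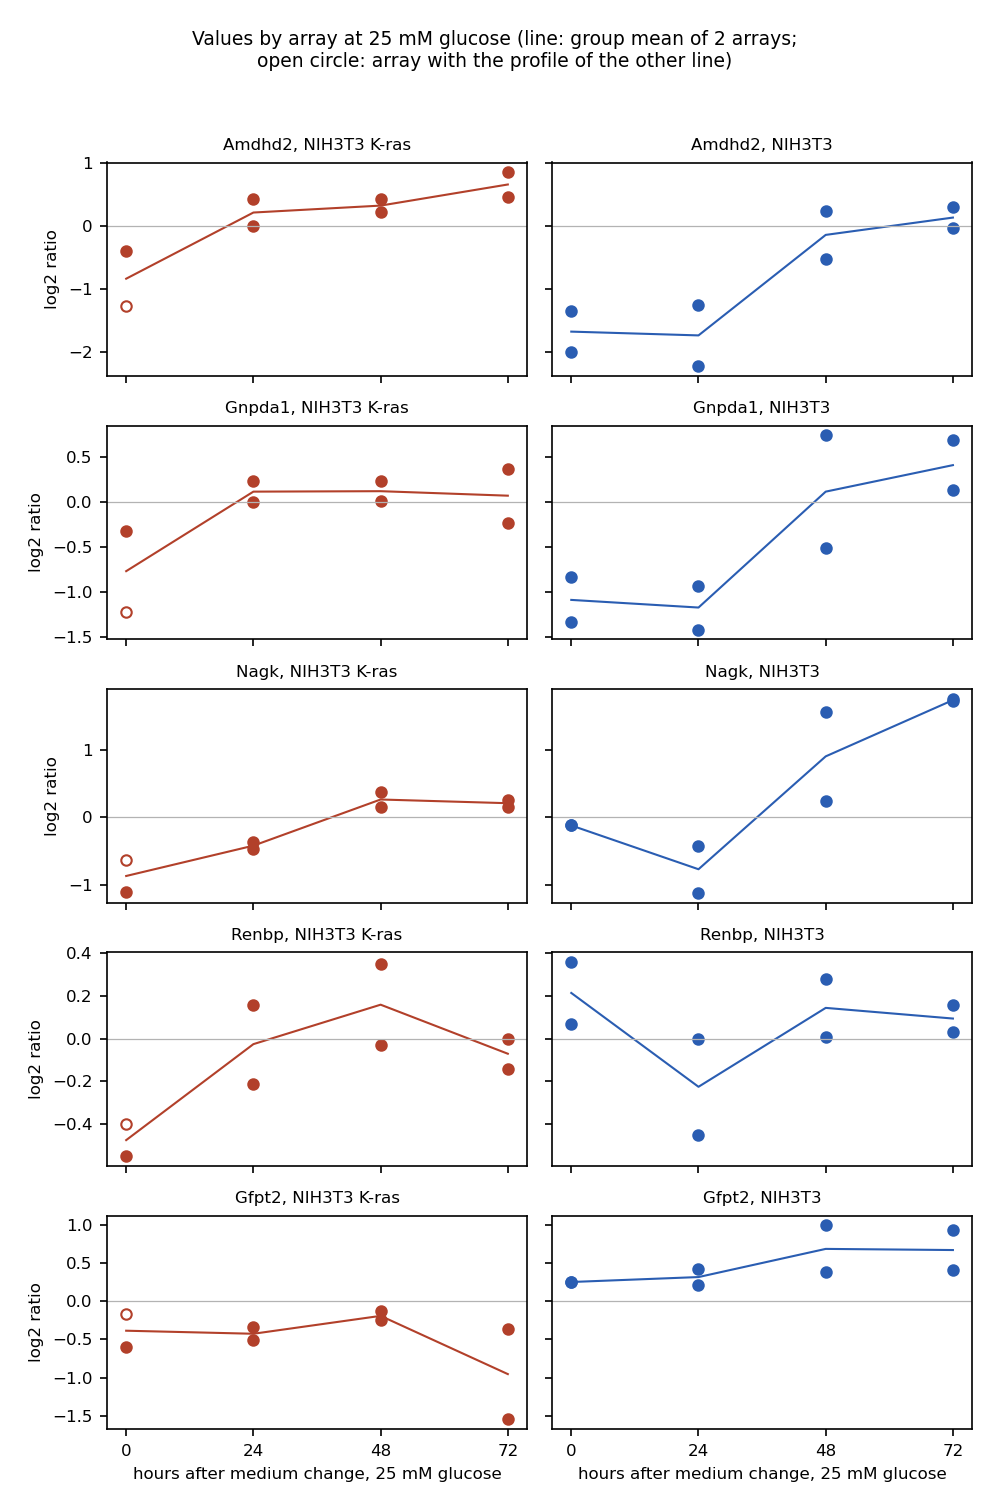
Log2 ratio of Amdhd2, Gnpda1, Nagk, Renbp and Gfpt2 at 25 mM glucose against time in hours, with K-ras on the left and NIH3T3 on the right. Points are single arrays, lines join the group means and an open circle marks the array that looks like the opposite line. In NIH3T3 the Amdhd2 points lie at -1.25 or lower at 0 and 24 h and at -0.53 or higher at 48 and 72 h.

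At 48 h against 0 h in NIH3T3 no member probe set was called (0 of 27 by limma, 7 at an unadjusted p under 0.05, 0.0372% of all probe sets called). The log2 fold changes were 1.53 ± 0.45 for Amdhd2, 1.20 ± 0.47 for Gnpda1 and 1.03 ± 0.45 for Nagk. At 24 h against 0 h none was called (2 of 27 at an unadjusted p under 0.05, 0.00572% of all probe sets called). In K-ras none of the 27 was called at 24, 48 or 72 h against 0 h (1, 5 and 2 at an unadjusted p under 0.05), when 0%, 0.00286% and 0% of all probe sets were. The difference between the lines in the change from 0 to 72 h was itself tested. limma called 0 of the 27 (1 at an unadjusted p under 0.05) and 0.00286% of all probe sets, so a difference between the lines in this change was not shown. For Amdhd2 that difference, K-ras minus NIH3T3, was -0.31 with a 95% interval of -1.64 to 1.03. It was -0.75 ± 0.56 without the 6 arrays and ran from -0.75 (without replicate 1 of K-ras 0 h) to 0.14 (without replicate 2) when single arrays were left out, so its direction is not settled.

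The calls of Nagk and Amdhd2 rested on all 4 arrays. Without any 1 of them, with the lone array left taken to vary like the other groups, their log2 fold changes lay between 1.48 and 2.45 and the limma adjusted p between 0.0926 and 0.253. After quantile normalisation their log2 fold changes were 1.44, 1.76 and 1.79 (limma adjusted p of 0.0524 to 0.0832), and 0 member probe sets were called. Without the 6 arrays out of place, 7 were called, when 9.61% of all probe sets were. These were both Nagk probe sets, Amdhd2, Gnpda1 (limma adjusted p = 0.0244), Gfpt1 1428715_at (0.86 ± 0.22), Ogt 1425516_at (1.56 ± 0.40) and Ogt 1425517_s_at (1.41 ± 0.38).

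None of the 5 Ogt probe sets passed over time in the fit of all arrays, and all 5 were positive in both lines. Their log2 fold changes from 0 to 72 h lay between 1.01 and 2.55 in NIH3T3 and between 0.26 and 0.76 in K-ras. The probe set nearest to the threshold, 1460631_at, stood at 0.56 and 0.05 at 72 h, against -0.48 and -0.92 at 0 h in NIH3T3 (1.01 ± 0.31, limma adjusted p = 0.0662). The probe set with the largest spread, 1436780_at, correlated with the other 4 at 0.32 to 0.62, while those 4 correlated among themselves at 0.77 to 0.95. Its K-ras arrays at 25 mM and 72 h stood at 3.15 and -1.64, the widest gap between replicates of this probe set.

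The synthesis genes were not called over time. From 0 to 72 h at 25 mM the log2 fold changes of their 17 probe sets lay between -0.71 and 0.65 in K-ras and between -0.49 and 0.86 in NIH3T3, and none was called in either line. The largest was Gfpt1 1428715_at in NIH3T3, at 0.21 and 0.06 at 72 h, against -0.63 and -0.81 at 0 h (0.86 ± 0.35, limma adjusted p = 0.175). The other 5 Gfpt1 probe sets had values between -0.17 and 0.40 in the same comparison, and the 6 probe sets correlated with each other at only -0.40 to 0.29 over the 28 arrays. Gfpt2 had a log2 fold change of -0.57 ± 0.38 in K-ras (-0.36 ± 0.50 without the 6 arrays) and 0.42 ± 0.38 in NIH3T3. Pgm3, the mutase, had 0.14 ± 0.36 in NIH3T3, with a 95% interval of -0.61 to 0.89. In K-ras it had 0.15 ± 0.36, but 0.59 ± 0.37 without the 6 arrays and -0.28 without replicate 2 of 0 h, so that value rests on single arrays.

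As a summary of both routes, each gene was taken as the mean of its probe sets and each route as the mean of its genes, as a description with no test. In K-ras at 25 mM the salvage mean was -0.73 ± 0.22 at 0 h, 0.01 ± 0.24 at 24 h, 0.19 ± 0.01 at 48 h and 0.15 ± 0.32 at 72 h (SD, n = 2 each). In NIH3T3 it was -0.74 ± 0.31 at 0 h, -0.92 ± 0.29 at 24 h, 0.21 ± 0.55 at 48 h and 0.56 ± 0.07 at 72 h. The salvage mean thus stood at or above 0 from 24 h on in K-ras and from 48 h on in NIH3T3. The synthesis mean stayed between -0.28 and 0.03 in the K-ras groups and between -0.22 and 0.18 in the NIH3T3 groups. From 0 to 72 h, synthesis minus salvage changed by -1.01 in K-ras (-0.74 without the 6 arrays) and by -1.15 in NIH3T3, where the pooled SD between replicates of this measure was 0.29.

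**Figure D3:**
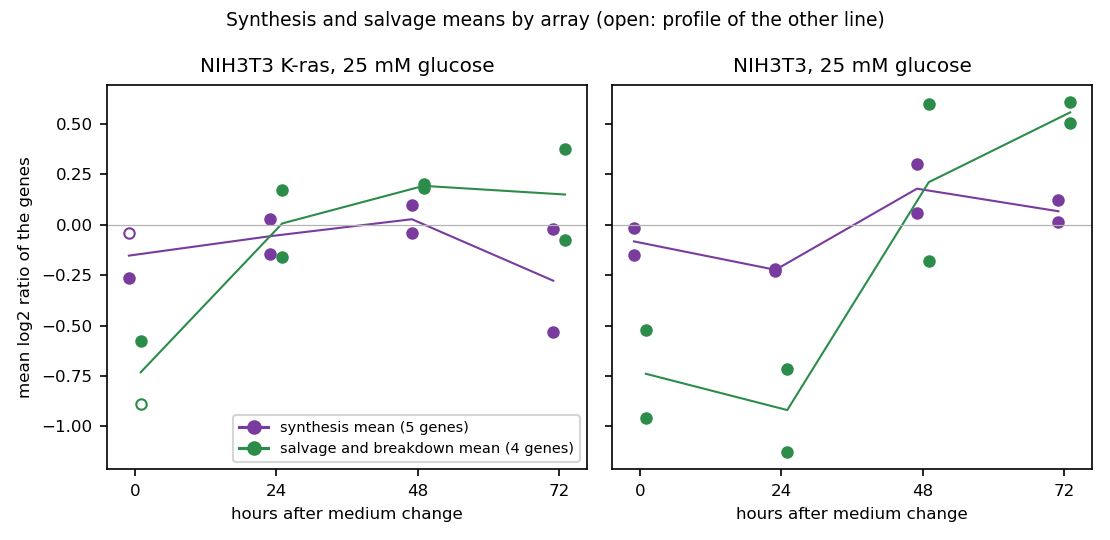
Mean log2 ratio per array at 25 mM glucose for the 5 synthesis genes and for the 4 salvage and breakdown genes against time in hours, K-ras left and NIH3T3 right, with lines through group means. In both lines the salvage mean is near -0.7 at 0 h and above 0 at 48 and 72 h, while the synthesis mean stays within 0.3 of 0 in every group.

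Between the lines at 25 mM, averaged over 0, 24, 48 and 72 h, 3 member probe sets differed. Gfpt2 was lower in K-ras than in NIH3T3, and Amdhd2 and 1 Uap1 probe set were higher. limma called 10.0% of all probe sets in this comparison, 4.89% higher and 5.13% lower in K-ras, so 3 of 27 is near the background share. It called 1 of 17 synthesis probe sets in each direction and 1 of 5 salvage probe sets. The p-values measure the spread between these cultures of 2 lines. Of the marker lists, 0 of 14 fibroblast probe sets were called between the lines, 1 of 8 leukocyte probe sets was higher in K-ras and 2 of 6 epithelial ones were lower, and their part in the result was not tested.

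Gfpt2, the second isoform of the rate-limiting enzyme, had the smallest adjusted p. On K-ras arrays it stood at -0.17 and -0.60 at 0 h, -0.34 and -0.51 at 24 h, -0.13 and -0.25 at 48 h, and -1.55 and -0.36 at 72 h. On NIH3T3 arrays it stood at 0.25 and 0.26 at 0 h, 0.22 and 0.42 at 24 h, 1.00 and 0.38 at 48 h, and 0.41 and 0.94 at 72 h. All 8 K-ras arrays lay below 0 and all 8 NIH3T3 arrays above it, including the K-ras array that looks like NIH3T3. The log2 fold change was -0.97 ± 0.19 (limma adjusted p = 0.00651). It stayed between -1.12 and -0.82 when any 1 of the 16 arrays was left out (limma adjusted p of at most 0.0249). At single times the largest gap was at 72 h, with -1.63 ± 0.38 (limma adjusted p = 0.0545).

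Uap1, the pyrophosphorylase that completes UDP-GlcNAc, went the other way in its most variable probe set, 1456516_x_at. On K-ras arrays it stood at 0.02 and 0.06 at 0 h, 0.45 and 0.30 at 24 h, 0.20 and 0.57 at 48 h, and -0.06 and 0.27 at 72 h. On NIH3T3 arrays it stood at -0.46 and -0.99 at 0 h, -1.89 and -0.97 at 24 h, 0.32 and 0.49 at 48 h, and -0.04 and -0.02 at 72 h. The groups parted at 0 and 24 h and overlapped at 48 and 72 h. The average log2 fold change was 0.67 ± 0.16 (limma adjusted p = 0.0157), and at 24 h it was 1.81 ± 0.33 (limma adjusted p = 0.0568). The other 4 Uap1 probe sets lay between 0.11 and 0.50 and were not called. The suffix x_at marks probe sets whose probes may also bind other transcripts.

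The windows around the starts of Gfpt2 (chr11:49793905-49794204, plus strand) and Uap1 (chr1:170174915-170175214, minus strand, build GRCm38.p6, RefSeq) are shown because these synthesis genes differed between the lines in opposite directions. Capitals mark TGACGTG.
Gfpt2: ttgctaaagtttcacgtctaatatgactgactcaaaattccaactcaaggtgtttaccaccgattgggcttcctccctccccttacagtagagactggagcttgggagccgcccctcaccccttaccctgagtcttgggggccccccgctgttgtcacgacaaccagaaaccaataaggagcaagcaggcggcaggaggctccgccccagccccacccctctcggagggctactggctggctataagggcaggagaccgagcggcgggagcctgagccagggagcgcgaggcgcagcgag
Uap1: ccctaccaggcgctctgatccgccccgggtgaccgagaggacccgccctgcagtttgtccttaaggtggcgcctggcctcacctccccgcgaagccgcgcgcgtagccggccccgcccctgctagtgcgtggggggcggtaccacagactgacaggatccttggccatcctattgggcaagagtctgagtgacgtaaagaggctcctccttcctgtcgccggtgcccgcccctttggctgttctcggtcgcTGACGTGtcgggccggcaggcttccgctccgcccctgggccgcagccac
Uap1 holds 1 match, which begins 1 base after the first base of the transcript, and 2.01% of all windows hold one. The Gfpt2 window holds none of the 3 motifs, of which TGATGNAA is in 3.97% of all windows. Of the 10 members, 8 had a window in the table that could be used. Neither the E-box nor the other motifs were found in the windows of Gfpt1, Pgm3, Ogt and Renbp.

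Amdhd2 was higher in K-ras, with a log2 fold change of 0.95 ± 0.22 (limma adjusted p = 0.0141). At 24 h K-ras stood at 0.43 and -0.01 and NIH3T3 at -1.25 and -2.23 (1.95 ± 0.45, limma adjusted p = 0.105). At 72 h it was 0.53 ± 0.45. Nagk pointed the other way, at -0.64 ± 0.22 on average (limma adjusted p = 0.0815) and at -1.53 ± 0.45 at 72 h (limma adjusted p = 0.0887). Gnpda1 had 0.32 ± 0.23 and Renbp -0.16 ± 0.12. The salvage mean of K-ras minus NIH3T3 was 0.13 on average, between 0.03 and 0.22 when single arrays were left out. That average joined differences of opposite sign, 0.01 at 0 h, 0.93 at 24 h, -0.02 at 48 h and -0.41 at 72 h. The synthesis mean differed by -0.10 on average and by -0.07, 0.17, -0.15 and -0.35 at 0, 24, 48 and 72 h. The pooled SD between single replicate arrays was 0.33 for salvage and 0.18 for synthesis.

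These line calls changed with the arrays used. Without the 6 arrays out of place, 5 member probe sets were called, when 16.2% of all were. Gfpt2 (-1.02 ± 0.21), Amdhd2 (1.06 ± 0.19) and Uap1 1456516_x_at (0.68 ± 0.15) were joined by Nagk 1419509_a_at (-0.70 ± 0.20) and Gfpt1 1428715_at (0.56 ± 0.12). Without replicate 2 of K-ras 25 mM 0 h, Amdhd2 was at 0.84 (limma adjusted p = 0.0516). With bioC as a block 0 were called, and Gfpt2 was at -0.36, Amdhd2 at 0.78 and Uap1 at 0.51. The block is separated from the line only through the NIH3T3 groups at 1 mM that hold both kinds of array. In the 48 h group the array not low in bioC is replicate 1, which looks like K-ras. There the block and the line profile cannot be told apart.

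At single times at 25 mM, limma called none of the 27 probe sets. At 0, 24, 48 and 72 h, 2, 5, 3 and 3 of them had an unadjusted p under 0.05, when 0.00286%, 0.0286%, 0% and 0.704% of all probe sets were called. Without the 6 arrays, Gfpt1 1428715_at (0.95 ± 0.22), Uap1 1456516_x_at (1.81 ± 0.28), Uap1 1437490_x_at (1.70 ± 0.33) and Amdhd2 (1.95 ± 0.35) were called higher in K-ras at 24 h, when 4.72% of all probe sets were called. Likewise, with 7.80% of all called, Gfpt2 (-1.63 ± 0.40) and Nagk 1419509_a_at (-1.53 ± 0.37) were called lower in K-ras at 72 h. At 1 mM none was called on average over 24, 48 and 72 h or at 72 h (2 and 6 at an unadjusted p under 0.05, 0% and 0.114% of all probe sets called). For Gfpt2 at 1 mM the log2 fold change was -0.002 at 24 h, where both NIH3T3 arrays look like K-ras. It was -0.004 at 48 h (-0.02 without the 6 arrays) and -0.27 on average. At 72 h and 1 mM, Gfpt2 stood at 0.01 and -0.35 in K-ras and 0.02 and 1.22 in NIH3T3. These parted only narrowly, and the 0.01 is from the K-ras array that looks like NIH3T3. The log2 fold change at 72 h was -0.79 (limma adjusted p = 0.414), and -0.97 ± 0.50 without the 6 arrays. Without the 6 arrays, Gfpt1 1428715_at (1.32 ± 0.27) and Gnpnat1 1423157_at (1.70 ± 0.45) were called higher in K-ras there and Nagk 1419509_a_at (-1.74 ± 0.46) lower, with a single K-ras array left in that group and 6.64% of all probe sets called.

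**Figure D4:**
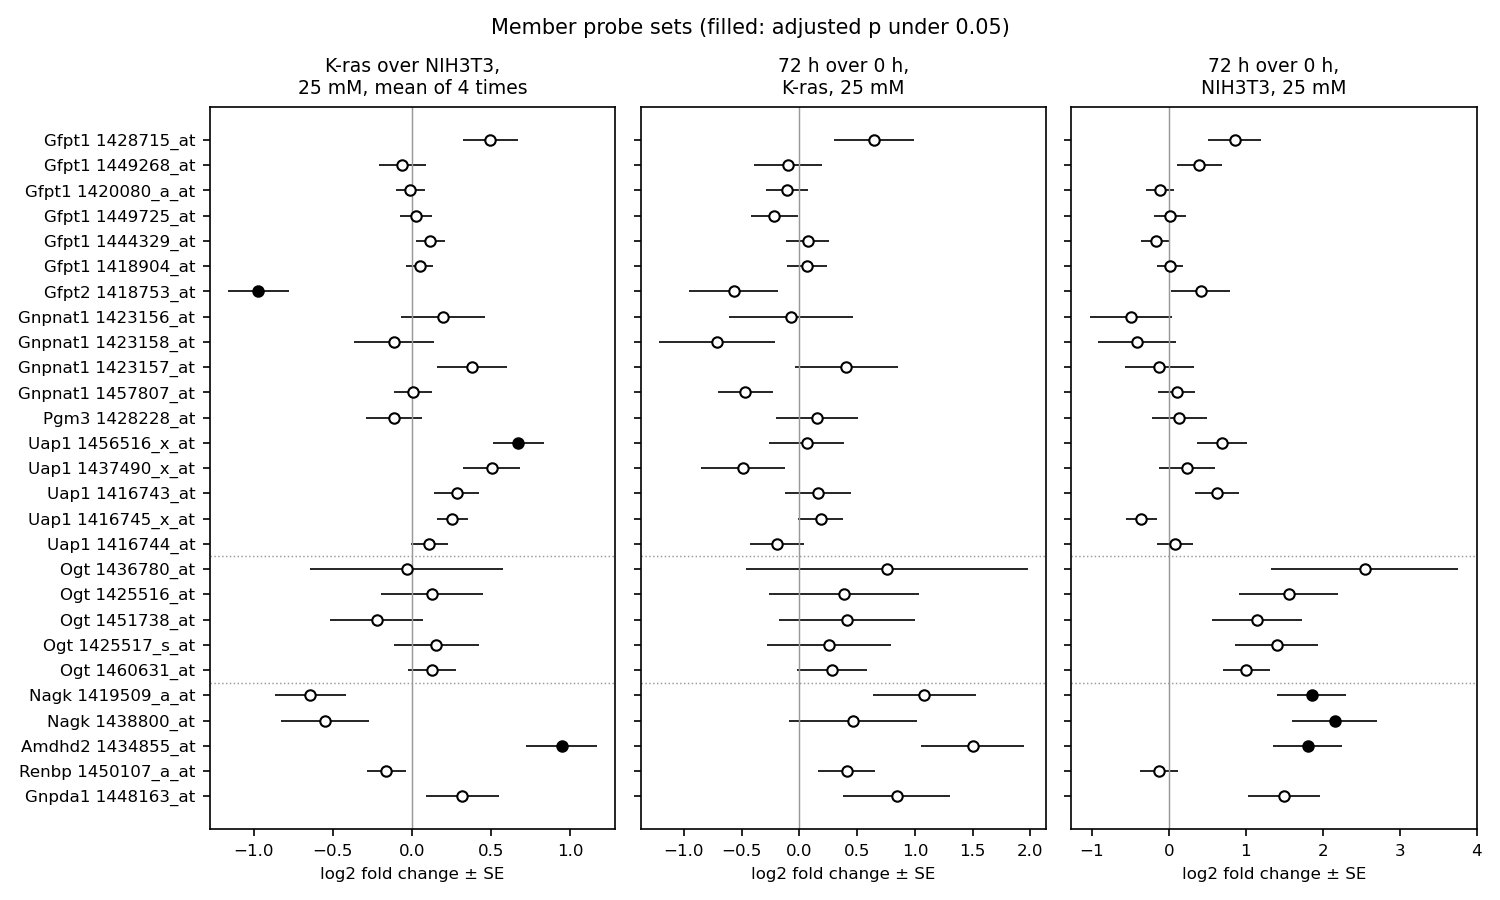
Log2 fold change with its standard error for all 27 probe sets in the line difference at 25 mM averaged over 4 times (K-ras over NIH3T3) and in the change at 72 h over 0 h at 25 mM in K-ras and in NIH3T3, with filled points for a limma adjusted p under 0.05. The filled points are Gfpt2, Amdhd2 and 1 Uap1 probe set for the lines, none for K-ras over time, and Amdhd2 and both Nagk probe sets for NIH3T3 over time.

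The glucose comparison bears directly on a pathway fed by glucose, and no member passed in it. Averaged over both lines and over 24, 48 and 72 h, limma called 0 of the 27 probe sets at 1 mM against 25 mM (2 at an unadjusted p under 0.05), and 0% of all probe sets (1843 of 34945 at an unadjusted p under 0.05). The largest value was 0.52 ± 0.21 for Gnpnat1 1423158_at (limma adjusted p = 0.930). For the genes at the entry, the 95% interval was -0.27 to 0.33 for Gfpt1 1428715_at and -0.32 to 0.34 for Gfpt2. It was -0.38 to 0.38 for Amdhd2 and -0.60 to 0.17 for Nagk 1419509_a_at. Of the 12 arrays at 1 mM in this average, 5 looked like the opposite line, and the average could not be computed without them.

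In NIH3T3 at 72 h, where all 4 arrays were in place, none of the 27 was called (0 at an unadjusted p under 0.05, 0.00286% of all probe sets called). Nagk 1419509_a_at stood at 0.68 and 1.61 at 1 mM, against 1.76 and 1.72 at 25 mM. Amdhd2 stood at -0.36 and 0.02 at 1 mM, against -0.03 and 0.29 at 25 mM (-0.30 ± 0.45). In Nagk 1419509_a_at the arrays at 1 mM lay below those at 25 mM. In Nagk 1438800_at they overlapped, at 0.62 and 1.40 against 1.75 and 1.17, and so did the Amdhd2 arrays. Gfpt1 1428715_at stood at -0.69 and 0.01 at 1 mM, against 0.21 and 0.06 at 25 mM. In NIH3T3 at 24 h and 48 h and in K-ras at 24 h and 48 h none was called either (8, 0, 0 and 2 at an unadjusted p under 0.05). Of all probe sets 0.00858%, 0%, 0% and 0% were called. Between 24 and 72 h at 1 mM none was called in K-ras or NIH3T3 (2 at an unadjusted p under 0.05 in each, 0% and 0.0172% of all probe sets called). Without the 6 arrays Ogt 1425516_at was called higher at 72 h than at 24 h in K-ras (2.68 ± 0.49, limma adjusted p = 0.0184, 1.42% of all called), with 1 array left at 72 h. The 8 glucose values at 24 h in NIH3T3 rest on 2 arrays at 1 mM that both look like K-ras.

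In K-ras at 72 h none of the 27 was called in the fit of all arrays (4 at an unadjusted p under 0.05, 0.200% of all probe sets called), but a synthesis enzyme and Ogt stood high on 1 array. Gnpnat1, the acetyltransferase, stood in 1423158_at at 0.13 and 1.53 at 1 mM, against -1.35 and -0.05 at 25 mM (1.53 ± 0.50, limma adjusted p = 0.183). Its probe sets 1423156_at and 1423157_at stood at 1.48 and 1.52 on the same replicate 2 at 1 mM, and at -0.04 and 0.09 on replicate 1. Ogt 1425516_at stood at -0.29 and 2.29 at 1 mM, against 0.21 and -0.04 at 25 mM. Replicate 1 at 1 mM looks like NIH3T3, and without the 6 arrays both probe sets were called, at 2.23 ± 0.50 for Gnpnat1 and 2.21 ± 0.49 for Ogt (limma adjusted p = 0.0296 and 0.0283, 3.23% of all probe sets called). Each then rests on 1 array at 1 mM, with that array taken to vary like the other groups.

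The same genes stood high on 2 arrays of NIH3T3 at 1 mM as well, but not on the other replicate of either group. Replicate 1 of NIH3T3 at 1 mM and 24 h, which looks like K-ras by Il33 and Krt14, stood at 1.87, 1.32 and 1.09 in the 3 Gnpnat1 probe sets and at 1.57 in Ogt 1425516_at. The fourth Gnpnat1 probe set, 1457807_at, stood at 0.02 on the K-ras array and 0.10 on this one. Replicate 2 of NIH3T3 at 1 mM and 72 h, which lay with its line, stood at 0.72, 0.91 and 0.21 in those 3 Gnpnat1 probe sets and at 1.31 in Ogt 1425516_at. Gfpt1 1428715_at was at 0.98 on the K-ras array and at 0.77 and 0.01 on these 2 NIH3T3 arrays. Has2 1418678_at, which differs between the lines at 25 mM, stood at 0.20 on the K-ras array and at -0.04 and -0.92 on the NIH3T3 ones. The other replicates of these NIH3T3 groups stood at -0.16 (24 h) and 0.05 (72 h) in Ogt 1425516_at. High values were not confined to 1 mM. Replicate 1 of NIH3T3 at 25 mM and 48 h stood at 0.87 in Ogt 1425516_at and 0.79 in Gnpnat1 1423156_at. At 25 mM and 72 h the NIH3T3 arrays stood at 0.94 and 0.59 in that Ogt probe set, but at -0.51 and -0.27 in Gnpnat1 1423156_at.

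Pgm3 stood at 0.77 and 0.65 at 1 mM in K-ras at 72 h, against -0.55 and 0.12 at 25 mM (0.92 ± 0.36, limma adjusted p = 0.245). Gfpt2 stood at 0.01 and -0.35, against -1.55 and -0.36 (0.78 ± 0.38, limma adjusted p = 0.355). The low value of -1.55 is from replicate 1 at 25 mM, the array that stood apart in bioC. Without replicate 2 at 25 mM the Gfpt2 log2 fold change was 1.38 (limma adjusted p = 0.0381), and 3 member probe sets were called. The synthesis mean was 0.32 ± 0.01 at 1 mM, against -0.28 ± 0.36 at 25 mM, and the salvage mean 0.02 ± 0.17 against 0.15 ± 0.32 (SD, n = 2 each). Synthesis minus salvage was thus higher by 0.73 at 1 mM in K-ras (0.84 without the 6 arrays) and by 0.19 in NIH3T3 at 72 h. The difference between the lines in the glucose effect, averaged over 24, 48 and 72 h, was not called for any member (0 of 27, 2 at an unadjusted p under 0.05, 0% of all probe sets called). The 2 were Amdhd2 (-1.03 ± 0.36) and Gfpt2 (0.82 ± 0.31), K-ras minus NIH3T3.

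**Figure D5:**
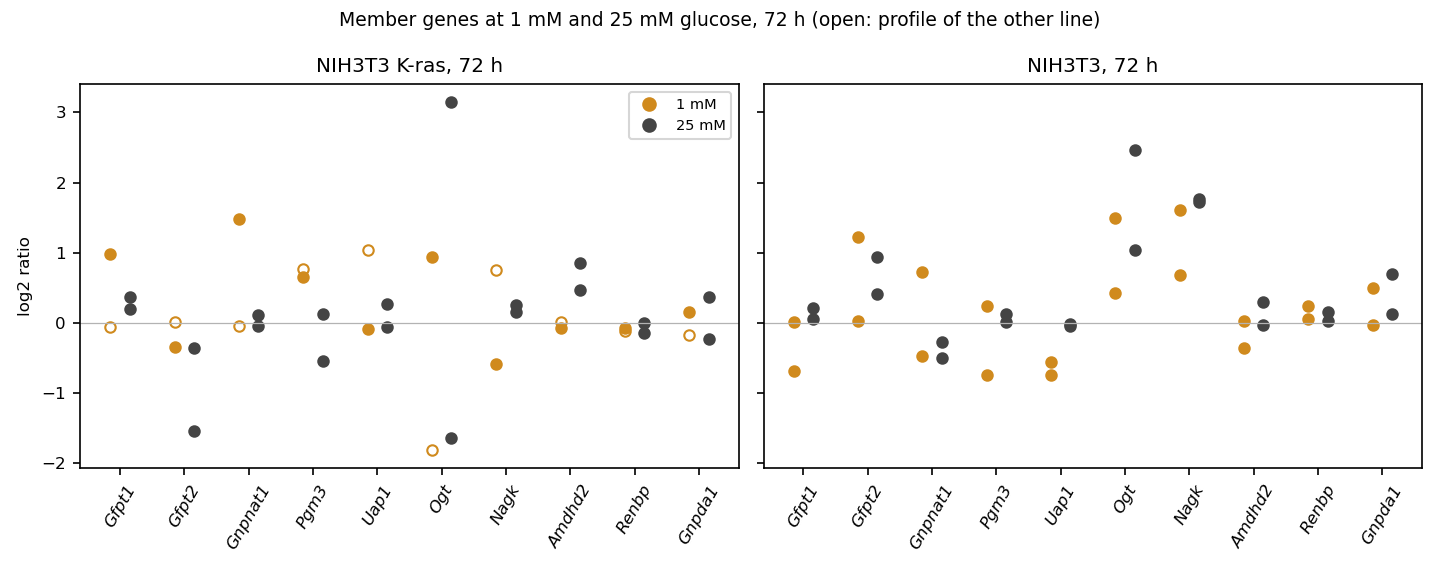
Log2 ratio at 72 h of the probe set that stands for each of the 10 genes, with 1 mM glucose left of 25 mM, K-ras in the left panel and NIH3T3 in the right. Points are single arrays and open circles mark arrays that look like the opposite line. In K-ras the 2 arrays at 1 mM are far apart for Gnpnat1 (-0.04 and 1.48) and Gfpt1 (-0.06 and 0.98) and close for Pgm3 (0.77 and 0.65).

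The genes around the pathway were counted from lists by role. Among the 13 measured of 14 genes that use UDP-GlcNAc, 2 were called higher and 2 lower in K-ras at 25 mM on average. Of all probe sets, 4.89% were called higher and 5.13% lower in that comparison. Has2, a hyaluronan synthase, was higher in both of its probe sets (3.43 ± 0.59 and 3.62 ± 0.57, limma adjusted p = 0.00468 and 0.00403). In 1418678_at it stood between 2.58 and 4.22 on 7 K-ras arrays, at -0.11 on the K-ras array out of place, and between -1.24 and 0.03 on the 8 NIH3T3 arrays. Mgat5, which adds a branch to N-glycans, was higher in 2 of 3 probe sets (0.70 ± 0.15 and 1.08 ± 0.22). Eogt, which places O-GlcNAc on secreted proteins, was lower in all 3 (-1.22 ± 0.32, -1.52 ± 0.42 and -1.23 ± 0.33), and Mgat1 was lower (-0.68 ± 0.15).

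Oga, which takes O-GlcNAc off proteins and so opposes Ogt, was lower in K-ras in 1 of 6 probe sets (-0.64 ± 0.11, limma adjusted p = 0.00468), and all 6 pointed that way. Its 6 probe sets had a median log2 fold change of 0.34 in K-ras and 0.73 in NIH3T3 from 0 to 72 h, with 0 called. Gnpda2, the second glucosamine 6-phosphate deaminase, was lower in K-ras in 2 of 3 probe sets (-2.20 ± 0.43 and -1.90 ± 0.33), in contrast to 0.32 ± 0.23 for Gnpda1. At 25 mM its probe set 1426523_a_at stood at 0.49 on the out-of-place K-ras array, between -3.30 and -0.54 on the other 7 and between 0.33 and 1.37 on the 8 NIH3T3 arrays. Of the 8 sialic acid and side branch genes, Gnpda2 was the only one called between the lines, when 10.0% of all probe sets were. Hk1, which phosphorylates glucose, was lower in 1 of 2 probe sets (-0.86 ± 0.20), and Aga and Nagpa, of 5 measured lysosomal genes, were lower (-0.59 ± 0.15 and -0.62 ± 0.18).

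From 0 to 72 h at 25 mM in NIH3T3, 2 of the 8 side branch genes rose, when 5.11% of all probe sets were called (3.14% higher). Uap1l1, a gene resembling Uap1, stood at 0.94 and 1.16 at 72 h, against -1.96 and -1.57 at 0 h, in 1436890_at (2.82 ± 0.58, limma adjusted p = 0.0119). Its other probe set was not called, at 0.73 and 0.26 against -0.88 and -0.67. Galk2, a kinase of N-acetylgalactosamine, stood at 0.95 and 0.71 at 72 h, against -1.10 and -0.88 at 0 h (1.82 ± 0.32, limma adjusted p = 0.00614). Alg13, which uses UDP-GlcNAc early in N-glycan assembly, fell (-1.57 ± 0.44, limma adjusted p = 0.0461). The lysosomal genes that free amino sugars were not called, with 7 of 8 probe sets positive and a median of 0.79. The factors Xbp1 and Atf4, which can induce synthesis genes under stress, had 0 of 7 probe sets called in this comparison and 0 of 7 between the lines. Uncalled, they moved in opposite directions over time in NIH3T3. Xbp1 1437223_s_at stood at 1.20 and 1.19 at 72 h, against -0.15 and -0.45 at 0 h, while the arrays overlapped in Xbp1 1420012_at. Atf4 1448135_at stood at -0.22 and -0.44 at 72 h, against 0.14 and 0.26 at 0 h. Their part in the result was not tested.

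Among the members themselves, Amdhd2 and Gnpda1 had the highest Pearson's r of the 45 pairs over all arrays of each line. Over the 14 arrays labelled K-ras, Pearson's r was 0.88 and Spearman's rho 0.61, and r was 0.54 without the 2 arrays farthest from the median of Amdhd2. In K-ras the pair was not first by the other measures, since Renbp and Gnpda1 had a rho of 0.68 and an r of 0.73 without the 2 farthest arrays. Over the 14 arrays labelled NIH3T3, r was 0.94 and rho 0.90, and r was 0.91 without the 2 farthest. These arrays share their times, media and mixed profiles, so the values describe them only. Gfpt1 and Gfpt2 correlated at -0.27 in K-ras and 0.21 in NIH3T3, and Amdhd2 and Nagk at 0.46 and 0.60.

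Over the 14 group means, the genes most like Gfpt1 1428715_at among 18183 non-member genes were Cstb (r = 0.97), Rilpl1 (0.96), Tmx4 (0.96), Snx13 (0.96) and Chd6 (0.95). Those most like Gfpt2 were Mpg (0.95), Zfp703 (0.94), Cog2 (0.94), Serpinb6a (0.92) and Pnpla6 (0.92). These likenesses carry no test.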

How the data were processed

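Total RNA of 28 cultures was hybridised to Affymetrix mouse arrays, 1 per culture, after Trizol and RNeasy extraction and one-cycle biotin labelling, per the labels' protocols. The submitters' processing notes name RMA without a version. The deposited table holds log2 values of 45101 probe sets. Tested on the file, 2 to the power of the value had a median of 1, within 0.001, over the arrays in 45101 of 45101 probe sets, so each deposited log2 value is relative to that probe set's median. Levels and signal over background are unknown, detection could not be judged, and the number of arrays limits precision. The lowest value, -6.64, was held by 4 entries.

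Symbols came from the platform annotation, with 34945 probe sets of 1 symbol, 932 of several, 9160 of none and 64 controls. Those 34945 were fitted with limma 3.58.1 in R 4.3.3 (lmFit, contrasts.fit, eBayes), with 1 coefficient for each of 14 groups over all 28 arrays and 14 residual degrees of freedom. Each comparison had its own Benjamini-Hochberg adjustment over all fitted probe sets. Errors after a log2 fold change are standard errors. The fit was tested on simulated data. All members and all their probe sets are named, the one with the largest SD over the arrays stands for a gene, and other pathway genes are given as counts with called examples. Members and lists were chosen with earlier results of these data known, and so were the comparisons and the split by bioC. Alternatives were quantile normalisation, leaving out the 6 arrays or each array in turn, bioC and replicate blocks, 1 probe set a gene, an SD filter, and fitting only the arrays compared. Motifs were searched with Python 3.11.15 in RefSeq windows of 300 bases, without chromosome 18. Figures were drawn with matplotlib 3.10.9.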

Additional observations from a re-analysis of the deposited data

How the results depend on the processing

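The number of member probe sets called by limma depended on the arrays used. For the line difference at 25 mM it was 3, and became 5 without the 6 arrays out of place, 5 with only the compared arrays fitted (13.9% of all probe sets called), 0 with bioC as a block and 2 to 5 when single arrays were left out. At 72 h it was 0, against 2 without the 6 arrays, 1 after the SD filter, 1 with only the compared arrays (2.18% of all) and 0 to 2 without single arrays. For 72 h over 0 h in NIH3T3 it was 3, against 0 after quantile normalisation, 7 without the 6 arrays, 12 with only the compared arrays (23.5% of all) and 0 to 0 without single arrays. For glucose in K-ras at 72 h it was 0, against 2 without the 6 arrays and 0 to 3 without single arrays. The causes were not tested. In no alternative did a called member change sign. Synthesis minus salvage moved by less than the SD between replicates in every alternative run for it, staying between -1.43 and -0.86 for NIH3T3 and between -1.27 and -0.74 for K-ras (72 h over 0 h) when single arrays were left out.

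Replicate numbers did not pair the arrays: over 91 pairs of groups the correlation of deviations had a median of -0.03, from -0.65 to 0.66, and was over 0.1 in 23. With the replicate block, 3 member probe sets were called for the lines and 3 for 72 h over 0 h in NIH3T3, and no call changed. The comparisons with NIH3T3 1 mM 24 h, and the glucose average over both lines, could not be fitted without the 6 arrays. A filter on dim probe sets needs a level, so probe sets of low SD were left out in its place. The route means were not run with the bioC block. Signal over background limits all values by an unknown amount.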
